A study of Mus musculus with 4 samples.

Results

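The paraoxonase family of the mouse consists of Pon1, Pon2 and Pon3. They were taken by symbol from the array's features that carry exactly 1 gene symbol, which gave 3 of 30142 genes, each with 1 feature. All 3 lay above the expression floor used here, a mean log2 signal of 5.82 over the arrays, as did 18084 genes in all. The family was chosen by the same signal on these 4 arrays, since earlier results, with a lower Pon1 signal after smoke among them, were known. The values of the members are therefore described without a test.

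Whole lungs came from male C57BL mice kept in clean air or exposed to mainstream cigarette smoke, that which a smoker inhales. Exposure started at 10 weeks of age, for 1 h per day on 5 days per week. The 4 groups were clean air for 2 weeks (12 weeks old at the end, 5 mice), smoke for 2 weeks (12 weeks old, 5 mice), clean air for 4 weeks (14 weeks old, 5 mice) and smoke for 4 weeks (14 weeks old, 4 mice). Lung samples of a group were mixed and hybridised to 1 array, so the spread between animals is averaged away and no group had a replicate pool. No genetic change is named for any group.

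Paraoxonases are calcium-dependent hydrolases that open lactone rings, and the family is named after the ability of PON1 to cleave paraoxon, the active form of an organophosphate insecticide. In humans, PON1 and PON3 are secreted mainly by the liver and travel in blood on high-density lipoprotein (HDL), where they limit the oxidation of lipids. PON2 stays inside cells, in membranes, is made in many tissues including the lung, and inactivates lactone signals that bacteria use to sense their own density.

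The 3 genes lie side by side on chromosome 6, and all are read from the minus strand. The 250 bases before each RefSeq transcription start (build GRCm38.p6) are shown because the genes differed in their smoke values while sharing one locus. Capitals mark every match, on either strand, to 6 short motifs: the GC box GGGCGG, the AHR core GCGTG, the E-box CACGTG, the AP-1 site TGANTCA, the TATA box TATAAA and the CCAAT box CCAAT. None of the matches overlap.
Pon1, chr6:5193947-5194196, minus strand: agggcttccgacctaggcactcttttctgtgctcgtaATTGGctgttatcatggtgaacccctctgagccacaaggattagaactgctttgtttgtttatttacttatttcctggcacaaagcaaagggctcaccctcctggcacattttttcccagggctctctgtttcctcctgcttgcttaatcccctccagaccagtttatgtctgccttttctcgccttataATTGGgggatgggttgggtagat
Pon3, chr6:5256234-5256483, minus strand: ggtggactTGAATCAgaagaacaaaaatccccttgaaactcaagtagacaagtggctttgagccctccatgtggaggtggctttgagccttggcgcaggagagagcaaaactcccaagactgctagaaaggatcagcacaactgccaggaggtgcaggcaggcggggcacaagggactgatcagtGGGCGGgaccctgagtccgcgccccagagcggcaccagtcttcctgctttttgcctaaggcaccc
Pon2, chr6:5298341-5298590, minus strand: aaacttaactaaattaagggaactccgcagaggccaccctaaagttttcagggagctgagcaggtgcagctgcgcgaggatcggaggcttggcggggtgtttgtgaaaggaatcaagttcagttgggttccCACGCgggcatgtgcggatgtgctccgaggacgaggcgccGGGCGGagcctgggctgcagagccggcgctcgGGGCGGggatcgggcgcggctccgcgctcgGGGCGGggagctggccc

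The windows differed in base composition. The Pon1 window was 47.6% G and C with 3 CpG pairs, the Pon3 window 56.8% with 6 and the Pon2 window 65.6% with 24, against medians of 52.4% and 6 over 32851 RefSeq windows of this length. The Pon2 window held 3 GC boxes, starting 79, 47 and 17 bases before the start, and the Pon3 window 1, starting 65 bases before it. The Pon1 window held 0, and 32.7% of all windows held at least 1. The Pon1 window held 2 CCAAT boxes, both on the reverse strand, a motif found in 33.8% of windows. The AHR core stood once in the Pon2 window (28.2% of windows). The AP-1 pattern, searched with any base allowed in the middle, matched once in the Pon3 window, with A there (6.75% of windows). The E-box (6.02%) and the TATA box (12.4%) had 0 matches in the 3 windows. These are matches of letters only.

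Pon1, the circulating paraoxonase, was more than 2-fold dimmer in each smoke pool than in the clean-air pool of the same age. At 2 weeks its intensity was 6426 in clean air and 2895 in smoke, and at 4 weeks 7170.1 in clean air and 3358 in smoke. Both smoke pools lay below both clean-air pools, and the lowest clean-air value was 1.91 times the highest smoke value. Of the genes above the floor, 16.8% had both smoke pools below both clean-air pools. Pon1 was 2.22-fold lower after 2 weeks, at 45.0% of its control, and 2.13-fold lower after 4 weeks, at 46.8% of its control. On the log2 scale these differences were -1.15 and -1.09. The number of arrays limits the precision, since each value is 1 pool.

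The Pon1 difference was alike at both durations, with the log2 values 0.06 apart. Pon1 was among the genes at least 1.5-fold lower at 2 weeks (1.22% of genes above the floor), at 4 weeks (1.5%) and at both (0.337%, 61 genes). Since the family was chosen with that contrast in view, nothing is read from this membership. Of the 61 genes, 53 are annotated as protein coding, and Pon1 ranked 10th among them by the smaller of its 2 differences. In 10 of the 61, Pon1 included, the 2 differences lay as close together as in Pon1 or closer. From 2 to 4 weeks the signal of Pon1 was 1.12-fold higher in clean air and 1.16-fold higher in smoke. Both of these differences between ages were small beside those between smoke and clean air.

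Pon2, the intracellular paraoxonase, differed little between the pools. The intensity at 2 weeks was 1601 in clean air and 1487 in smoke, and at 4 weeks 1523 in clean air and 1478 in smoke. Both smoke pools were again the lower ones, but by log2 differences of -0.11 at 2 weeks and -0.04 at 4 weeks. The clean-air pools differed from each other by -0.07. For scale, the log2 differences of all genes above the floor had a spread of 0.166 at 2 weeks, 0.20 at 4 weeks and 0.20 between the clean-air pools (median absolute deviation, scaled as an SD). All 3 differences of Pon2 lay within it.

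Pon3 was brightest after 2 weeks of smoke. It measured 9338 in clean air and 10652 in smoke at 2 weeks, and 9479 in clean air and 9148 in smoke at 4 weeks. The smoke pools were thus the highest and the lowest of the 4, and the groups overlapped. The log2 difference was 0.19 at 2 weeks, or 1.14-fold, and -0.05 at 4 weeks. The first is slightly more than the spread of 0.166 over genes and the second well inside that of 0.20. The clean-air pools differed by 0.02. Of all genes above the floor, 43.5% had opposite signs at the 2 durations.

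**Figure D1:**
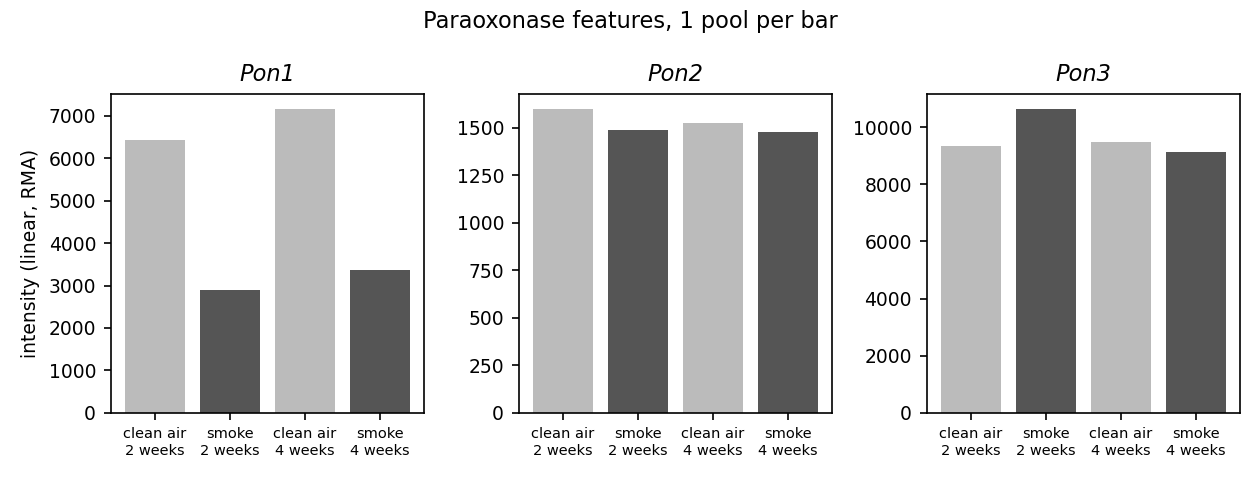
Intensity (linear scale, from 0) of the Pon1, Pon2 and Pon3 features in each of the 4 pools, 1 array per bar and no error bars, light grey for clean air and dark grey for smoke. Pon1 stood at 2895 and 3358 in the smoke pools against 6426 and 7170.1 in clean air, while the bars of Pon2 and of Pon3 were of similar height in all pools; heights are not comparable between panels.

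Set against each other, the members differed in their smoke values. The log2 smoke difference of Pon1 was 1.04 below that of Pon2 at 2 weeks (-1.04) and 1.05 below it at 4 weeks (-1.05). Against Pon3 it was lower by 1.34 and 1.04 (-1.34 and -1.04). Pon2 and Pon3 were 0.30 apart at 2 weeks (-0.30) and 0.01 apart at 4 weeks. Between the clean-air pools the same pairs differed by 0.23 for Pon1 minus Pon2, 0.14 for Pon1 minus Pon3 and -0.09 for Pon2 minus Pon3. Among genes above the floor, Pon1 stood at percentile 0.133 of the 2-week and 0.155 of the 4-week smoke differences. Pon2 stood at percentiles 24.7 and 44.7, and Pon3 at 84.9 and 43.2. In the difference between clean-air pools the percentiles were 76.8 for Pon1, 33.6 for Pon2 and 52.6 for Pon3. A signal on one feature cannot be set against that on another, so no order of abundance between the members is given.

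**Figure D2:**
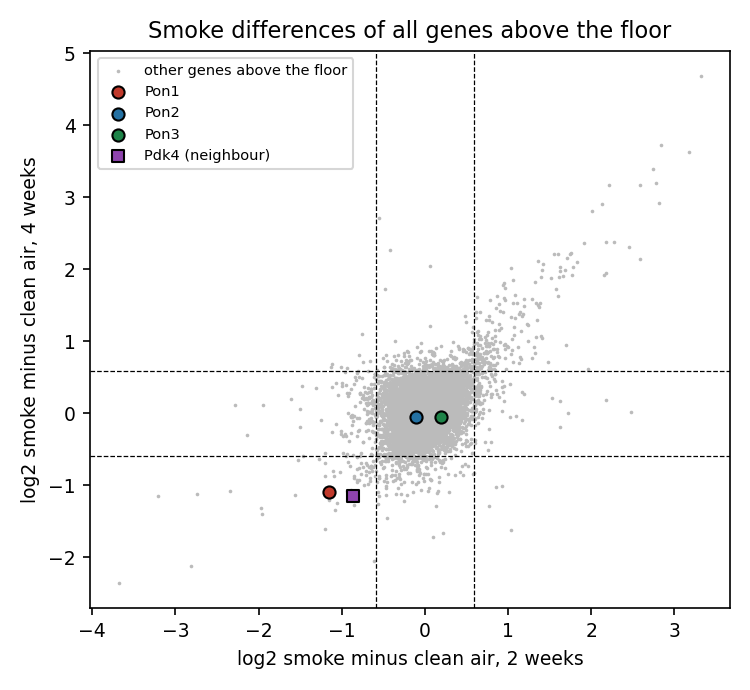
Log2 smoke minus clean air at 2 weeks (x axis) against 4 weeks (y axis) for the 18084 genes above the floor (grey), with Pon1, Pon2, Pon3 and the neighbour Pdk4 marked and dashed lines at 1.5-fold. Pon1 (-1.15 and -1.09) and Pdk4 (-0.86 and -1.14) lie in the lower left field, and Pon2 and Pon3 lie in the dense centre.

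The genes around the cluster were then compared, taking the 5 nearest protein-coding genes on each side in the RefSeq table. For each, limma estimated 1 smoke effect from the 4 arrays, in a model that also held duration and was fitted to all 18084 genes. The error in this fit has 1 residual degree of freedom and comes from how far the smoke difference changed between durations, moderated across genes. Words such as rose and fell are used of genes that passed at a Benjamini-Hochberg adjusted p of 0.05, and 1.15% of all genes rose and 0.315% fell. Of the 10 neighbours, 7 lay above the floor, of which 1 fell, 0 rose and 6 did not pass. Asb4 and Dync1i1 were under the floor, and Gmfg-ps was not measured by a feature of its own.

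The neighbour that fell was Pdk4, a kinase that shuts down pyruvate dehydrogenase and so spares glucose, which is the second gene beyond Pon2. It measured 1555 in clean air and 855 in smoke at 2 weeks, and 2521 in clean air and 1144 in smoke at 4 weeks. Both smoke pools were below both clean-air pools, by 1.82-fold at 2 weeks and 2.20-fold at 4 weeks. The effect over both durations in limma was -1.0 ± 0.114 (SE, 2 smoke and 2 clean-air pools; adjusted p = 0.0172). After cyclic loess scaling it was -0.96 with an adjusted p of 0.0650, so the call was lost. Without the 2-week clean-air, 2-week smoke, 4-week clean-air or 4-week smoke pool, in fits without duration, the effect was -1.35, -0.79, -0.65 or -1.21, and the adjusted p 0.144, 0.637, 0.458 or 1.0. The calls of the 8 list genes named below were lost in the same way with each pool left out, except that of Atp6v0d2 without the 4-week clean-air pool. Pdk4 also differed with age, being 1.62-fold higher in clean air at 4 weeks than at 2 weeks, where Pon1 was 1.12-fold higher. Asb4 lies between Pon2 and Pdk4, so the lower signals of Pon1 and Pdk4 were separated by Pon3 and Pon2, whose differences were small, and by a gene under the floor.

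The other 6 neighbours had limma effects of -0.18 to 0.13, with adjusted p-values of 0.615 or higher. On the side of Pon1, Ppp1r9a, which encodes the actin-binding protein neurabin, was at -0.19 and -0.16 at the 2 durations, and the imprinted genes Peg10 and Sgce were at -0.20 and -0.13 and at 0.02 and -0.08. Casd1, a sialic acid acetyltransferase, was at -0.02 and -0.13. On the side of Pon2, Slc25a13, the mitochondrial carrier citrin, was at 0.22 and -0.07, and Sem1, a proteasome subunit, at -0.04 and 0.30.

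**Figure D3:**
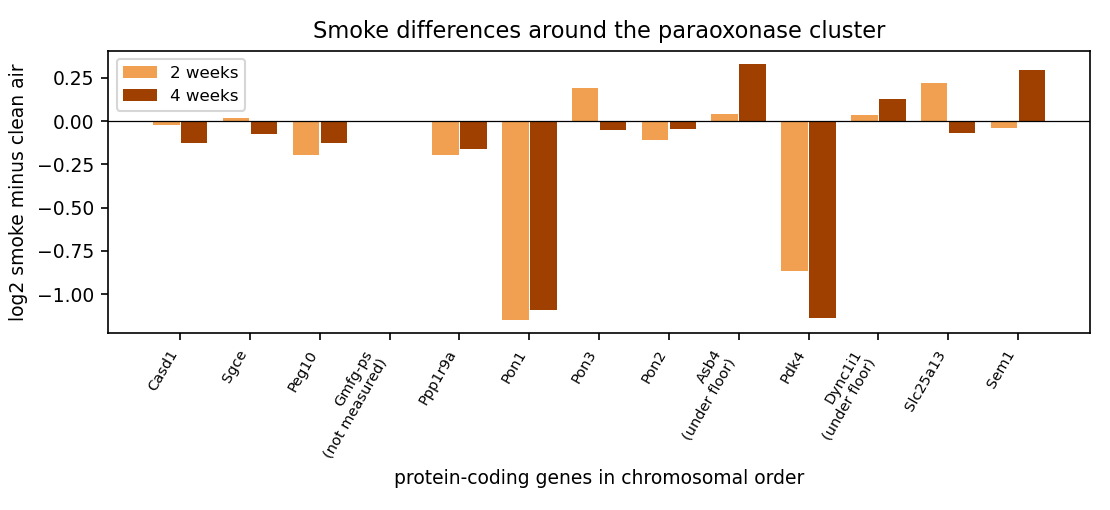
Log2 smoke minus clean air at 2 weeks (light) and 4 weeks (dark) for the paraoxonases and their 10 nearest protein-coding genes in chromosomal order, 1 pool per group and no error bars. Pon1 and Pdk4 reach -0.86 or lower at both durations, and no other gene shown goes below -0.20.

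The protein-coding genes whose pattern over the 4 pools was most like that of Pon1 were found by the root mean square distance between log2 values, each gene centred on its own mean. Of 12582 genes compared, 21 lay within 0.2 of Pon1 and 1 within 0.1. The nearest was the immediate early gene Ier2 at 0.096, followed by the orphan nuclear receptor Nr4a2 at 0.107 and Zfp36, which encodes the mRNA-destabilising protein tristetraprolin, at 0.109. Csrnp1, a nuclear protein gene, followed at 0.121 and Cpne5, a copine gene, at 0.122. In the smoke pools the log2 signal of Cpne5 was 5.72 and 5.68, below the level of 5.82 used as the floor. Ier2 was at -1.20 and -0.87 at the 2 durations, and Zfp36 at -0.88 and -1.07. Between the clean-air pools Ier2 differed by -0.08 and Zfp36 by 0.39, while Pon1 differed by 0.16. After cyclic loess scaling, 3 of the 5 (Zfp36, Ier2 and Nr4a2) were still among the nearest 5. These genes were picked for their likeness over 4 values, so the likeness is a description.

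Pon2 and Pon3 had no such small set. Within 0.1 of Pon2 lay 5781 of the 12582 genes, and within 0.1 of Pon3 lay 3913. The genes nearest to Pon2 were Ccdc9 (0.0074) and Thnsl2 (0.0081), and those nearest to Pon3 were Rbm4 (0.0056) and Stx17 (0.0064). After cyclic loess 0 of the nearest 5 were kept for either gene.

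**Figure D4:**
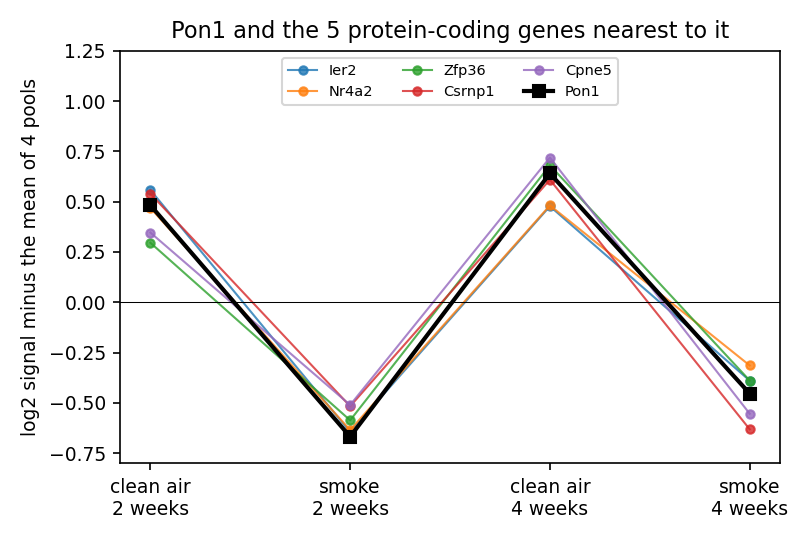
Log2 signal minus the gene's mean over the 4 pools for Pon1 (black squares) and the 5 protein-coding genes nearest to it (coloured points), 1 value per pool; lines join the values of a gene. All 6 genes lie above 0 in both clean-air pools and below 0 in both smoke pools, by construction of the choice.

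The genes that build and remodel HDL, the particle that carries PON1, mostly did not pass, but only 1.47% of all genes passed. Of 20 listed, 15 lay above the floor, of which 1 rose and 0 fell. The median log2 smoke difference of these 15 was 0.00 at 2 weeks and 0.08 at 4 weeks, against 0.01 and -0.02 over all genes above the floor. The gene that rose was Saa3, an acute-phase apolipoprotein of serum amyloid A type, with 2.13 at 2 weeks and 2.90 at 4 weeks. Its limma effect was 2.52 ± 0.182 (adjusted p = 0.0031). In clean air its log2 signal was 5.87 and 6.11, close to the floor of 5.82, so the size of its rise is uncertain. The close relatives Saa1 and Saa2, at -0.22 and 0.57 and at -0.22 and 0.45, did not pass, and such similar genes may share probe signal. Abcg1, which exports cholesterol to HDL, was at 0.45 and 0.87 without passing (0.66 ± 0.130, adjusted p = 0.0869). Apoe, a lipid-carrying apolipoprotein of macrophages, was at 0.00 and 0.24. Apoa1 and Apoa2, the main HDL proteins, were under the floor. Unadjusted limma p-values were under 0.05 for 4 of the 15, against 11.6% of all genes. These were Saa3 and Abcg1, both higher, and Lipg (-0.25 and -0.52) and Abca1 (-0.38 and -0.16), both lower. In this list the fit to protein-coding genes alone was checked only for Saa3.

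Other esterases, lactonases and epoxide hydrolases had 0 passing genes of 14 above the floor, out of 21 listed. The share passing over all genes was 1.47%. Their medians were 0.03 and -0.04. Of these 14 genes, 4 were lower at both durations (29.3% of all genes were) and 3 higher at both (27.2%). The carboxylesterase Ces1f was the furthest from 0, at -0.62 and -0.26 (-0.44 ± 0.123, adjusted p = 0.213), followed by Ces1g at -0.37 and -0.26. Bphl, a serine hydrolase that also opens homocysteine thiolactone as PON1 does, was at 0.25 and 0.29, and Blmh, a protease with the same side activity, at -0.01 and 0.06. The soluble epoxide hydrolase Ephx2 was at 0.07 and -0.06. At an unadjusted limma p under 0.05 stood 3 of the 14, against 11.6% of all genes, and Ces1f passed when protein-coding genes alone were fitted. In that fit 884 genes passed, against 265 in the fit to all genes above the floor.

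Among 15 listed genes that form or remove lipid peroxides, 11 lay above the floor, of which 2 rose and 0 fell. Over all genes 1.15% rose and 0.315% fell. Alox15 and Mpo were under the floor, and the peroxiredoxin genes Prdx5 and Prdx6 were not measured by features of their own. Alox5ap, the membrane partner of 5-lipoxygenase, was at 0.77 and 0.64 (0.70 ± 0.104, adjusted p = 0.0348). Cybb, the catalytic subunit of the phagocyte NADPH oxidase, was at 0.80 and 1.27 (1.03 ± 0.136, adjusted p = 0.0258). Both calls were lost after cyclic loess, with adjusted p-values of 0.0780 and 0.0686. The measured enzymes that remove peroxides and superoxide did not pass: Gpx4 was at 0.19 and 0.13, Gpx1 at 0.38 and 0.08, Cat at -0.04 and -0.06 and Sod2 at 0.39 and 0.43. The medians of the list were 0.38 and 0.08. Unadjusted limma p-values were under 0.05 for 4 of the 11, against 11.6% of all genes. These were Alox5ap, Cybb, Sod2 and Alox5, the last at 0.46 and 0.38. In this list the fit to protein-coding genes alone was checked only for Alox5ap and Cybb.

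Transcription factors linked to paraoxonase promoters in the literature had 0 passing genes of 8 above the floor, out of 13 listed. Over all genes the share passing was 1.47%. Their medians were 0.05 and -0.09. Ppargc1a, a coactivator of oxidative metabolism, was at -0.31 and -0.64 (adjusted p = 0.171), and the nuclear receptor Pparg at 0.38 and 0.39 (adjusted p = 0.185). The aryl hydrocarbon receptor gene Ahr was at 0.35 and 0.16, Srebf2, the master factor of sterol synthesis, at 0.23 and -0.09, and Sp1, which binds GC boxes, at 0.05 and -0.23. At an unadjusted limma p under 0.05 stood 2 of the 8, against 11.6% of all genes. Ppargc1a and Pparg passed when protein-coding genes alone were fitted, as did 884 genes in all. Hnf4a and the bile acid receptor gene Nr1h4 were under the floor.

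Markers of the cell types in a lung sample were summed as linear intensity to set them beside Pon1. In bulk tissue, fewer cells of a type and less RNA per cell cannot be told apart. The sum of 8 club cell markers, of the secretory cell of the small airways, was 0.05 log2 units higher at 2 weeks and -0.03 at 4 weeks, and that of 7 alveolar type 2 markers 0.07 and 0.09 higher. Scgb1a1 and Sftpc, the defining genes of these epithelia, were at 0.02 and -0.01 and at 0.01 and 0.10. But Scgb1a1 ranked 1 of all genes on every array and Sftpc between 6 and 9, and RMA could hide a change there. Very bright genes make up most of the club and type 2 sums, so the same limit holds for these sums. The 7 measured ciliated cell markers summed to 0.26 and -0.03, and the 5 alveolar type 1 markers to -0.04 and -0.13. Of these 4 sets 0 genes passed limma, against 1.47% of all genes. An unadjusted limma p under 0.05 was held by 1, 1, 1 and 2 of the club, type 2, ciliated and type 1 markers. Over all genes this share was 11.6%. The club list's largest difference was that of the secretoglobin Scgb3a1, at 1.96 and 0.61. From 2 to 4 weeks, however, Scgb3a1 differed by 1.30 between the clean-air pools and by -0.06 between the smoke pools. Scgb3a1 passed with protein-coding genes only and after median centring, where adjusted p-values followed effect size alone. Cfap126, a ciliary gene, and Hopx, a type 1 gene, passed with protein-coding genes only. With the mean over its features the Hopx effect was -0.23, against -0.40 with the brightest feature. After cyclic loess the club cell sum was 0.18 and -0.17. The small sums changed sign with cyclic loess for type 2 cells at 4 weeks (-0.03), ciliated cells at 4 weeks (0.03) and type 1 cells at 2 weeks (0.05).

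Marker sums of other cells differed between the pools. The sum of 6 measured alveolar macrophage markers ranged from 7785 to 9700 in clean air and from 25615 to 40857 in smoke. Of the 6, 4 rose, against 1.15% of all genes: Marco, a scavenger receptor, Cd68, a lysosomal protein, Itgax, an integrin, and Atp6v0d2, a proton pump subunit. The other 2 did not pass, with Krt79 at -0.35 and -0.28 and Siglecf at -0.13 and 0.13. The sum of 6 endothelial markers was -0.19 and -0.32, or -0.087 and -0.39 after cyclic loess, from 295214 to 306522 in clean air and from 236706 to 269223 in smoke. All 6 were lower at both durations, as were 29.3% of all genes. Of the 6, 1 fell, against 0.315% of all genes: Cldn5, the tight junction protein claudin 5 (-0.81 ± 0.102, adjusted p = 0.0230, or 0.0728 after cyclic loess). The marker lists were chosen with earlier results known, so these counts are a description. The sum of 4 measured cardiomyocyte markers was -0.28 and -0.86, from 11942 to 16048 in clean air and from 8823 to 9837 in smoke. Of these 4, 0 passed limma, and Nppa, the atrial natriuretic peptide gene, was at 1.04 and -1.62. Myh6 and Tnnt2 passed after median centring and with protein-coding genes only, and Myh6 also with a pseudocount of 16. The adjusted p-values after median centring followed effect size and not a gene's own spread, as described in the last section. Adipocyte and mesothelial sums were 0.15 and 0.20 at 2 weeks and -0.55 and -0.73 at 4 weeks, and 0 of 4 and 0 of 3 markers above the floor passed. The part of these cells in the Pon1 difference was not tested.

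The liver, the main source of circulating PON1, left little signal in the pools. Of 5 hepatocyte markers, Ttr, Apob and Fgb were under the floor and Alb and Ahsg above it. Alb, the serum albumin gene, was at -0.28 and -0.25 and did not pass. The 5 markers summed to between 207 and 255 intensity units in the 4 pools, with log2 smoke differences of -0.13 and 0.02.

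**Figure D5:**
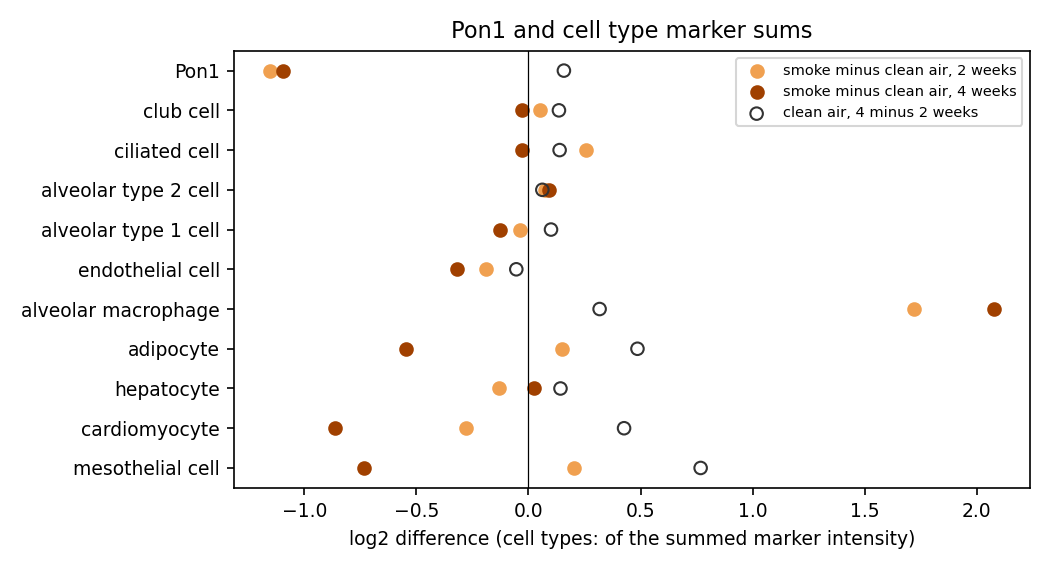
Log2 difference of Pon1 and of the summed linear intensity of each cell type's markers: smoke minus clean air at 2 weeks (light), at 4 weeks (dark) and the 4-week minus the 2-week clean-air pool (open circles), 1 pool per group and no error bars. Pon1 lies at -1.15 and -1.09, below every marker sum, and alveolar macrophage sums lie at 1.72 and 2.07.

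Over all genes above the floor, 549 of 18084 differed at least 1.5-fold at 2 weeks (3.04%), 730 at 4 weeks (4.04%) and 740 between the clean-air pools (4.09%). Of these, 329 were higher and 220 lower at 2 weeks, 458 and 272 at 4 weeks, and 334 and 406 between the clean-air pools. After median centring the last 2 splits were 347 and 362 and 476 and 269. In limma 265 genes passed (1.47%), 208 rising and 57 falling. The median intensity of an array was 58.8 to 61.7. As markers of lung, Scgb1a1 ranked 1, Sftpc between 6 and 9 and Sftpb between 18 and 27 by signal among 30142 genes in the 4 pools.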

How the data were processed

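RNA of 4 pools of lungs was measured on 4 arrays; samples were grouped by their titles. Per the submitters' processing notes, the authors used RMA and Affymetrix Expression Console 1.4.1; the deposited table gives linear intensities. The sources used here name neither a filter, nor the base of the linear values, nor a genome build. Base 2 was assumed: log2 was taken with no pseudocount. With base e every log2 difference would be 0.693 times as large. RMA makes the distributions of arrays alike, so that only differences relative to other genes remain.

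Of 65956 features, 30604 carried 1 symbol in the array annotation, 2146 carried several and 33206 were absent from it. Entrez IDs linked 22818 of them to current RefSeq symbols (GRCm38.p6). The brightest feature stood for a gene, and genes above the 40th percentile of mean log2 signal were tested with limma 3.58.1 (R 4.3.3; prior 5.38 degrees of freedom). Tested on simulated data (18084 genes, 200 changed, 20 runs, no duration effect), limma recovered 26.9% of genes changed 1.5-fold and 94.9% of those changed 2-fold, and 7.96% of its calls were false. The simulated noise was independent and normal, with variances drawn from limma's own fitted prior, so it met the assumptions of the model. These shares therefore need not hold for the real pools. Differences between single pools had no test. The p-values measure only the spread between these 4 pools, part of which may be technical. Columns of other samples numbered 0.

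The members and lists were chosen with earlier results of these data known. Genes named were the members, 5 neighbours per side, the 5 nearest patterns per member, list genes that passed or up to 4 with the largest difference, and the first markers of each cell type; others named for their role were chosen after their values were seen. Promoter windows of all 3 members were found in the RefSeq table; the 50 bases after the start were left out. Alternatives were median centring, cyclic loess, no floor, protein-coding genes only, a pseudocount of 16, the mean over features, no duration term, each pool left out, and base e.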

Additional observations from a re-analysis of the deposited data

Results flagged for a closer look

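Some of the genes named above, and of the first markers listed for each cell type, differed from their control in opposite directions at the 2 durations. Each direction rests on 1 pool against 1 pool, the difference between durations was not tested, and 43.5% of all genes above the floor had opposite signs. Values are given for 2 weeks first. Among the paraoxonases this was Pon3, at 0.19 and -0.051, and with it Rbm4 (0.20 and -0.061) and Stx17 (0.20 and -0.046), picked for their likeness to it. Among the neighbours it was Sgce (0.021 and -0.076), Slc25a13 (0.22 and -0.065) and Sem1 (-0.041 and 0.30).

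In the lists of related genes it was Saa1 (-0.22 and 0.57), Saa2 (-0.22 and 0.45), Apoe (-0.00097 and 0.24), Blmh (-0.0092 and 0.059), Ephx2 (0.074 and -0.059), Srebf2 (0.23 and -0.091) and Sp1 (0.045 and -0.23).

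Among the markers of lung epithelium and macrophages it was Scgb1a1 (0.018 and -0.0099), the ciliary gene Tekt1 (0.23 and -0.085), the surfactant protein gene Sftpb (0.041 and -0.012), Ager (0.012 and -0.099), an alveolar type 1 gene, and Siglecf (-0.13 and 0.13). The cardiomyocyte marker Nppa was at 1.04 and -1.62. Cidec, a lipid droplet protein of adipocytes, was at 0.076 and -0.92. The mesothelial genes Msln and Upk3b were at 0.30 and -0.39 and at 0.24 and -0.75.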

How the results depend on the processing

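Pon1 stayed lower in the smoke pool after median centring, cyclic loess and a pseudocount of 16, at -1.15 to -1.10 after 2 weeks and -1.15 to -1.08 after 4 weeks; the mean over features could not differ, as each member has 1. With base e the values were -0.80 and -0.76. Pon2 changed sign at 4 weeks after cyclic loess (0.0068). The count of genes passing limma was 585 after median centring (375 rising, 210 falling), 77 after cyclic loess (69 and 8), 884 with protein-coding genes only and 0 without the duration term, where 1163 had an unadjusted p under 0.05. It was 0 to 34 in fits that left out a pool and also lacked the duration term, namely 6, 0, 34 and 0 without the 2-week clean-air, 2-week smoke, 4-week clean-air and 4-week smoke pool (unadjusted p under 0.05 in 1024, 1469, 1449 and 597 genes). Of 9 neighbour and list genes that passed, 5 still did after cyclic loess and 0 without the duration term. The genes nearest to Pon1 in pattern were not part of this count. Among protein-coding genes, 350 differed at least 1.5-fold at 2 weeks and 267 between the clean-air pools. After median centring the adjusted p-values of limma followed effect size and not a gene's own change between durations. Cidec, at -0.43, had 0.120 there, and Cfap126, at 0.43, had 0.115. As deposited, Cidec was at 0.076 and -0.92 at the 2 durations and Cfap126 at 0.45 and 0.43. Calls after median centring thus do not weigh a gene's own spread. The duration term already sets each smoke pool against the clean-air pool of its age, and the labels give no replicate numbers for any other pairing. Signal over background was not available per feature, so the floor is the one limit set on dim genes.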
